A study of Mus musculus with 8 samples.

Results

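The hypoxia-response genes are a group of 33 mouse genes that act in the cell's answer to low oxygen: the subunits of the hypoxia-inducible factors (HIFs), the enzymes that sense oxygen and degrade these factors, and genes that the factors switch on. They were taken by gene name from the non-control probes of the array, and each gene was represented by its probe with the highest mean signal. Of the 33 genes, 32 had a probe above background and were tested among 23526 genes in all. Epo, which encodes erythropoietin, was not well above background on any of the 8 arrays.

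Liver RNA was measured on 1-colour Agilent arrays in pups that lacked the miR-379/miR-410 cluster, an imprinted group of microRNA genes, on the chromosome from the mother, and in wild-type littermates, with 4 pups per genotype. All pups were on the C57BL/6J background, were delivered by caesarean at E19.5 (embryonic day) and were killed 4 h later. In both groups the newborns were kept in a warm, moist box, and their breathing was stimulated by gentle massage, so each value describes liver soon after the first breaths. The deletion was maternally inherited, the samples were fragments of the large liver lobe, and the labels give no sex. The arrays are called WT1 to WT4 (wild-type) and KO1 to KO4 (knockout). All 8 lay on 1 slide and came from 1 scan, with each genotype in its own column of the slide, so an effect of the column cannot be told apart from genotype.

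HIFs are pairs of an oxygen-sensitive alpha subunit and a stable partner. With oxygen, prolyl hydroxylases mark the alpha subunit, the Vhl protein recognises the mark and the subunit is degraded. At low oxygen the alpha subunit persists, enters the nucleus with its partner and binds short DNA motifs near genes for glucose uptake, glycolysis, vessel growth, pH control and matrix assembly. The liver meets a change of oxygen supply at birth, when blood flow from the placenta ends.

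Several arrays stood apart from the rest. Mirg, a non-coding RNA gene of the deleted locus, had scaled signals (processed signals brought to the same 75th percentile on every array) of 2472 to 2687 on the wild-type and 305 to 493 on the knockout arrays. The adjusted p was 0.000347 from limma, a linear model that draws each gene's spread toward a common value. Every knockout array lay below every wild-type array. KO4 was closely matched by a mixture of 0.357 parts KO2 and 0.643 parts KO3, fitted over 22602 genes outside the hypoxia-response group. WT4 was matched by 0.431 parts WT2, 0.50 parts WT3 and 0.068 parts WT1. The mixtures predicted 30 of the 32 hypoxia-response genes to within 0.2 log2 units on KO4 and 30 on WT4, against 13 to 25 of them for the other 6 arrays. Over the 22602 fitted genes the root mean square error was 0.20 log2 units on KO4 and 0.26 on WT4. It was 0.25 on KO3 and 0.29 on WT3, so WT4 did not stand apart by this measure. Xist, transcribed from the inactive X chromosome, was well above background on KO1, KO2 and KO4 only, and Ddx3y, a Y-linked gene, on WT1, WT2, WT4, KO3 and KO4. Both were therefore present on KO4, and neither was above background on WT3. Whether the replicate 4 arrays are independent pups was not tested, and differences between the genotypes are also given without them.

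Hepatocyte markers were all above background (12 of 12). Pancreatic acinar markers, of which 11 of 15 were tested, had summed signals from 13435 to 94887 in the wild-type and from 8804 to 13517 in the knockout group, highest on WT3 and WT4. Skeletal muscle markers, of which 8 of 12 were tested, summed to between 1283 and 2817 in the wild-type and between 825 and 989 in the knockout group. Myl1 (-3.28 log2 units, limma adjusted p = 0.0272) was the only 1 of the 8 lower at an adjusted p below 0.05, against 0.179% of all genes. At an unadjusted limma p below 0.05, 6 of the 8 were lower, against 6.93% of all genes. For the 11 acinar markers these counts were 0 and 6, with 1 higher at the unadjusted p.

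HIFs bind the core motifs ACGTG and GCGTG, and the stretch of 250 bases before the start site is shown for 4 members whose values carry the results below: a pair that was high mainly on KO3 and KO4 (Ankrd37, Ero1l) and a pair that was higher on every knockout array (Slc2a1, Pdk1). The sequences are from RefSeq on GRCm38.p6, written 5' to 3' on the strand of the gene, and capitals mark every ACGTG or GCGTG on either strand.
Ankrd37: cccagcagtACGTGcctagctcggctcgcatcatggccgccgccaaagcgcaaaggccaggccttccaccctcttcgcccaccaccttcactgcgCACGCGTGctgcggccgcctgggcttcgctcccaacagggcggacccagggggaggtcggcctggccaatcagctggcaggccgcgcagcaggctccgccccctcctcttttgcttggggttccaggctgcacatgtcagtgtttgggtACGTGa
Ero1l: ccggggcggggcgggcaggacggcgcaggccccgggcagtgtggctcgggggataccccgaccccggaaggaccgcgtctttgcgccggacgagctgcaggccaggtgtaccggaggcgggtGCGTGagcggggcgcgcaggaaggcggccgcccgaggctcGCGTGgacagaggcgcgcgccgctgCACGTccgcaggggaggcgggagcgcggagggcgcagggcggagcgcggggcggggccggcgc
Slc2a1: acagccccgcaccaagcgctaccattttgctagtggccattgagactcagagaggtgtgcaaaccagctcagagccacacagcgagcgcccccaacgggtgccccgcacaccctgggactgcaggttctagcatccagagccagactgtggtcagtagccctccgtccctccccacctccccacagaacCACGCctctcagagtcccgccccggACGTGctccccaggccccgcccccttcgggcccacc
Pdk1: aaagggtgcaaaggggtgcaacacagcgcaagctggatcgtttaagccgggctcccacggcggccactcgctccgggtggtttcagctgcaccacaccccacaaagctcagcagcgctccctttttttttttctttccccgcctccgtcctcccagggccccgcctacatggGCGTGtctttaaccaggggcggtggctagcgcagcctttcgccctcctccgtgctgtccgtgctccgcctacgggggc
The windows are chr8:45999851-46000100 (minus strand) for Ankrd37, chr14:45318573-45318822 (minus strand) for Ero1l, chr4:119108495-119108744 (plus strand) for Slc2a1 and chr2:71872974-71873223 (plus strand) for Pdk1. Ankrd37 has 2 ACGTG and 2 GCGTG matches in this window, and Ero1l has 1 ACGTG and 2 GCGTG matches. Slc2a1 has 1 of each, and Pdk1 has 1 GCGTG match. Another Pdk1 window, chr2:71874654-71874903, has 0 matches of either motif. RefSeq entries were found for 26 of the 33 members, with 33 windows. ACGTG stood in 15 of these windows (45.5%), against 16.6% of all 32851 windows of the same length, and GCGTG in 21 (63.6%), against 28.2%. ACGTG also lies inside CACGTG, the E-box that other factors bind, which was present in 2 of the member windows. Member windows had a median GC content of 62.0%, against 52.4% for all windows, and the part of base composition in the motif shares was not tested. A match describes letters only and does not show binding.

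None of the 32 genes tested passed an adjusted p of 0.05 between genotypes in limma, where 0.208% of all genes did (49 genes). By direction, 0.0298% of all genes were called higher and 0.179% lower in the knockout. The lowest adjusted p among the members was 0.158. At an unadjusted limma p below 0.05 there were 5 members higher in the knockout (15.6%, against 6.11% of all genes) and 1 lower (3.1%, against 6.93%). The 5 were Slc2a1, Pdk1, Kdm3a, Ero1l and Egln3, and the lower gene was Ddit4. The knockout mean was the higher one for 21 members (65.6%, against 54.8% of all genes). The median difference was 0.17 log2 units, against 0.02 over all genes, and the 95% interval of 26 members included 0. With 4 arrays a group the median half-width of that interval over all genes was 0.26 log2 units. In whole liver fragments, fewer cells of a type and less RNA per cell cannot be told apart.

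The higher values lay mainly on KO3 and KO4. On KO3, 18 of the 32 members exceeded all 4 wild-type arrays, against 24.2% of all genes, and on KO4 17 did, against 23.6%. On KO1 the number was 13, against 24.8%. On KO2 it was 3, against 19.6%, and those 3 genes (Slc2a1, Pdk1 and Kdm3a) were above every wild-type array on all of the knockout arrays. A further 7 genes were above on KO1, KO3 and KO4 (Arnt, Egln3, Bnip3, Higd1a, Ero1l, P4ha1 and Ankrd37), and 5 on KO3 and KO4 only (Egln1, Slc2a3, Adm, Plod2 and Bhlhe40). Thus 15 members were above all wild-type arrays on both KO3 and KO4 (46.9%, against 16.4% of all genes). KO4 was closely matched by 0.643 parts KO3 and 0.357 parts KO2, so its counts may repeat those of KO3, which was not tested. Below all 4 wild-type arrays were 6 members on KO1 (20% of all genes), 7 on KO2 (17.8%), 3 on KO3 (24.8%) and 6 on KO4 (20.4%).

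**Figure D1:**
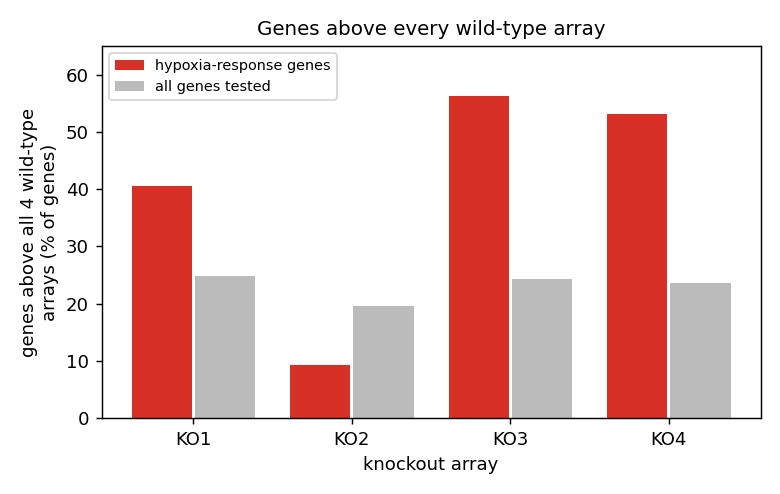
Percentage of genes whose level on a knockout array exceeded all 4 wild-type arrays, for the 32 hypoxia-response genes (red) and all genes tested (grey), by knockout array. The red bars stand at 56.3% on KO3, 53.1% on KO4 and 40.6% on KO1, and below the grey bar at 9.38% on KO2.

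The size of the differences followed the same order. On KO3, 12 members stood more than 0.5 log2 units above their wild-type mean (37.5%, against 4.96% of all genes), and on KO4 9 did (28.1%, against 4.06%). There were 4 such members on KO1, against 5.09% of all genes, and 1 on KO2, against 2.75%. The mean deviation of the 32 genes from the wild-type mean was 0.43 log2 units on KO3, 0.33 on KO4, 0.13 on KO1 and -0.02 on KO2. Within the wild-type group it was -0.15 on WT1 and between 0.04 and 0.06 on the other 3. KO3 held the highest of the 8 values for 17 members (53.1%, against 15.2% of all genes), and WT1 the lowest for 14 (43.8%, against 25.6%).

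**Figure D2:**
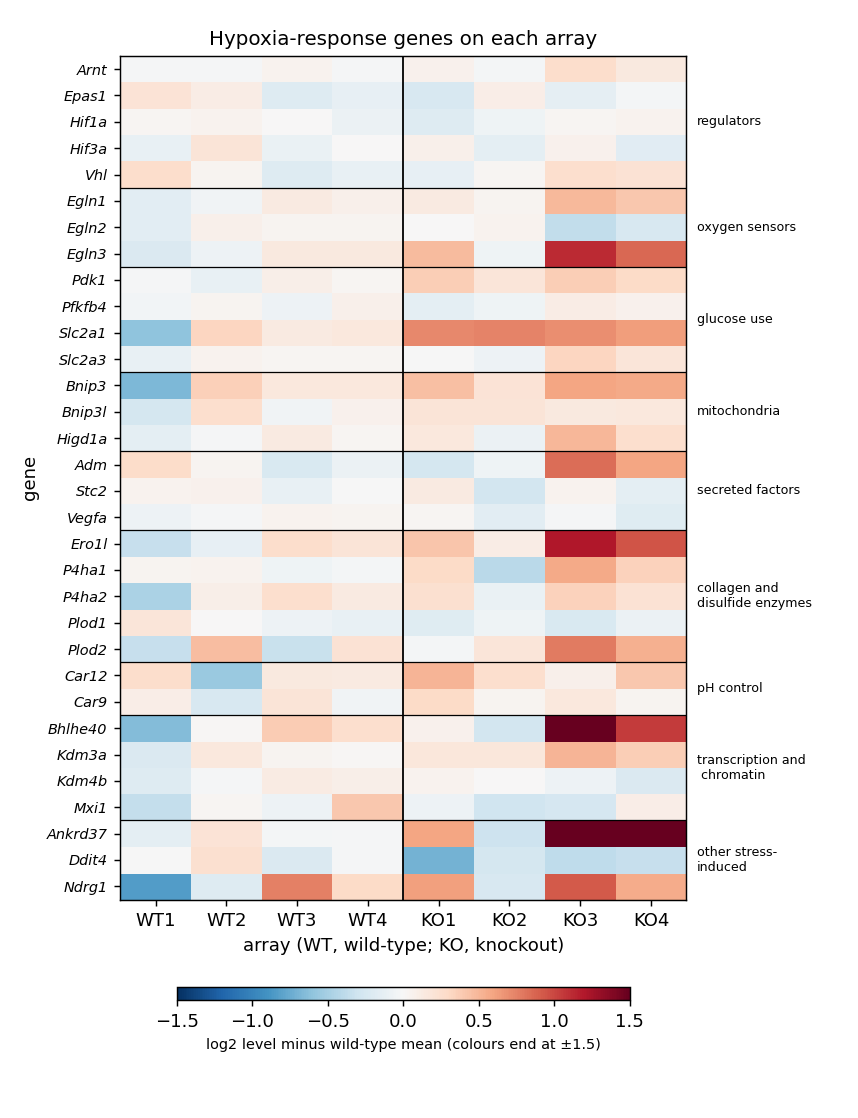
Log2 level of each hypoxia-response gene minus its wild-type mean, by array (columns) and role (blocks of genes), red above and blue below the wild-type mean. The darkest reds are Ankrd37 and Bhlhe40 on KO3 and Ankrd37 on KO4, whereas KO2 is pale for most genes and Slc2a1 is red on all 4 knockout arrays.

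The chosen probes of the regulators differed little between genotypes. Hif1a, an alpha subunit, had scaled signals of 1014 to 1113 in the wild-type and 942 to 1113 in the knockout group. Epas1, the alpha subunit prominent in endothelium and erythropoietin control, spanned 27805 to 36633 and 27011 to 34148. The other 3 were Hif3a, a further alpha subunit, Arnt, the stable partner, and Vhl, which brings hydroxylated alpha subunits to degradation. Differences of the 5 genes at these probes ran from -0.07 to 0.11 log2 units, with 2 means higher in the knockout and every pair of groups overlapping. The further probes of the alpha subunits, which are dimmer, all had a higher knockout mean, in contrast to the chosen probes. They gave 0.21 and 0.05 log2 units for Epas1, 0.41 for Hif1a and 0.13 and 0.28 for Hif3a, so no direction can be given for these 3 genes. The further Hif1a probe had signals of only 14.5 to 31.0 and was well above background on 6 arrays. The further probes of Arnt, also dimmer, gave 0.27 and 0.33, against 0.11 at the chosen probe. The Arnt probe with 0.33 had signals of only 8.95 to 22.6 and was well above background on 4 arrays. The abundance of the HIF alpha proteins, which oxygen controls mainly after translation, was not measured.

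Of the oxygen sensors, Egln3, a prolyl hydroxylase that is itself a HIF target, differed most. On WT1 to WT4 its scaled signals were 796, 878, 1024 and 1027, and on KO1 to KO4 they were 1291, 886, 2008 and 1683. KO1, KO3 and KO4 were above every wild-type array and KO2 lay within the wild-type range. The difference was 0.60 log2 units (SE 0.24, 95% interval 0.06 to 1.14, limma adjusted p = 0.337), and its other probe gave 0.46. Egln1, the main hydroxylase of most tissues, had signals of 95.8 to 118 in the wild-type group and 111 to 150 in the knockout group, with the highest values on KO3 and KO4. Egln2, a related hydroxylase, differed by -0.14 log2 units, with its lowest levels on KO3 and KO4.

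Slc2a1, the glucose transporter GLUT1, which carries glucose into red blood cells and many fetal tissues, was one of the members whose groups did not overlap. The scaled signals were 10338, 19573, 17188 and 17477 on WT1 to WT4 and 25845, 26360, 25493 and 24324 on KO1 to KO4. The knockout arrays lay close together, all above the wild-type arrays, and WT1 was well below the other 3 wild-type arrays. The knockout level was 1.62-fold the wild-type level (0.70 log2 units, SE 0.18, 95% interval 0.28 to 1.12, limma adjusted p = 0.172). Without WT1 the difference was 0.50 log2 units and its limma adjusted p was 0.0465, which passed the threshold. In that fit 98 of all genes were called, against 49 with every array. The probe lies at chr4:118809864-118809923 on mm9.

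Erythroid markers, which include globin and red cell membrane genes, moved partly with Slc2a1. All 12 were tested in limma, with 0 called and 1 higher at an unadjusted p below 0.05, against 6.11% of all genes. Against 54.8% of all genes, 11 of the 12 erythroid markers had a higher mean in the knockout group. Their mean deviation was -0.38 log2 units on WT1, between -0.02 and 0.26 on the other wild-type arrays and between 0.22 and 0.31 on the knockout arrays. Their summed signal ran from 1189890 to 1588240 in the wild-type and from 1402090 to 1552020 in the knockout group. The part of red cell precursors in the Slc2a1 values was not tested.

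Pdk1, a kinase that holds pyruvate back from the mitochondria, had the lowest p of the group. It had scaled signals of 1885, 1776, 2037 and 1959 on WT1 to WT4 and 2472, 2165, 2474 and 2339 on KO1 to KO4. All knockout arrays were above all wild-type arrays, by a narrow margin on KO2. The difference was 0.30 log2 units (SE 0.08, 95% interval 0.13 to 0.48, limma adjusted p = 0.158). Slc2a3, a further glucose transporter, and Pfkfb4, which makes an activator of glycolysis, differed by 0.11 and -0.01 log2 units.

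Bnip3, which marks mitochondria for removal by autophagy, was highest on KO3 and KO4. Its scaled signals were 36367, 74512, 64541 and 64839 on WT1 to WT4 and 79407, 66975, 87112 and 85969 on KO1 to KO4. WT1 was the lowest array by far and KO2 lay within the wild-type range. The difference was 0.45 log2 units (SE 0.21, limma adjusted p = 0.408), and 0.23 without WT1. The other probes gave 0.44 and 0.58 log2 units, both with an unadjusted limma p below 0.05, and on the latter every knockout array (376 to 514) was above every wild-type array (270 to 344). Bnip3l, a relative of Bnip3 that clears mitochondria from maturing red cells, and Higd1a, which supports the respiratory chain, differed by 0.17 and 0.21.

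Among the secreted factors only Adm, the vasodilator peptide adrenomedullin, had high values on KO3 and KO4. Signals were 386, 328, 271 and 299 on WT1 to WT4 and 265, 305, 567 and 480 on KO1 to KO4. KO1 was below every wild-type array while KO3 and KO4 were above them, and the difference was 0.28 log2 units. Vegfa, the main growth factor of blood vessels, had signals of 8537 to 9306 in the wild-type and 7950 to 9159 in the knockout group, a difference of -0.08. Stc2, stanniocalcin, differed by -0.06.

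Ero1l (now Ero1a) encodes an oxidase that forms disulfide bonds in the endoplasmic reticulum. Scaled signals of this gene were 339, 394, 517 and 491 on WT1 to WT4 and 575, 463, 990 and 823 on KO1 to KO4. Only KO2 overlapped the wild-type range, and KO3 and KO4 were the highest. The difference was 0.67 log2 units (SE 0.25, 95% interval 0.11 to 1.23, limma adjusted p = 0.304). Plod2, a lysyl hydroxylase for collagen cross-links, was also highest on KO3 and KO4, with 191, 336, 193 and 282 on WT1 to WT4 and 238, 276, 416 and 353 on KO1 to KO4 (0.36 log2 units, SE 0.24, limma adjusted p = 0.526). The prolyl hydroxylases of collagen, P4ha1 and P4ha2, differed by 0.20 and 0.17, and Plod1 by -0.14.

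Car12, a membrane carbonic anhydrase, was dim, with scaled signals of 50.3, 28.5, 46.4 and 45.8 on WT1 to WT4 and 59.6, 49.5, 44.0 and 55.5 on KO1 to KO4. WT2 was the low array, KO2 and KO3 lay inside the wild-type range, and the difference was 0.31 log2 units (SE 0.19, limma adjusted p = 0.499). It was 0.13 without WT2 and 0.06 with normexp background correction. Car9, the carbonic anhydrase best known as a HIF target, differed by 0.13.

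Kdm3a, a histone H3 demethylase that HIF induces, was another member without overlap between the groups. Its scaled signals were 1926, 2504, 2296 and 2269 on WT1 to WT4 and 2527, 2527, 3196 and 2883 on KO1 to KO4. KO1 and KO2 barely exceeded WT2, and KO3 and KO4 were clearly higher. The difference was 0.31 log2 units (SE 0.11, 95% interval 0.05 to 0.56, limma adjusted p = 0.295). Over all genes the groups failed to overlap with a higher knockout for 4.14%, against 3 of the 32 members (9.4%).

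Bhlhe40, a repressor that also takes part in the circadian clock, had scaled signals of 543, 868, 1113 and 1014 on WT1 to WT4 and 890, 708, 2444 and 1772 on KO1 to KO4. KO3 and KO4 stood far above the rest, whereas KO1 and KO2 lay inside the wild-type range. The difference was 0.59 log2 units (SE 0.41, limma adjusted p = 0.550), and 0.37 without WT1. Mxi1, which opposes Myc, and Kdm4b, another histone demethylase, differed by -0.13 and -0.06.

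Ankrd37, a small ankyrin-repeat protein of which little is known beyond its induction by HIF, had the widest spread. Its scaled signals were 183, 234, 198 and 201 on WT1 to WT4 and 305, 164, 2036 and 1506 on KO1 to KO4. KO3 and KO4 were far above every other array, KO1 was a little above the wild-type range and KO2 was below it. The mean knockout level was 3.08-fold the wild-type level (1.62 log2 units), yet the SE was 0.75, the 95% interval ran from -0.09 to 3.33 and the limma adjusted p was 0.400.

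Ddit4, which restrains growth signalling by mTOR under stress and also answers to glucocorticoids, was the only member with all knockout arrays below all wild-type arrays, against 4.81% of all genes. Its scaled signals were 60963, 72002, 52579 and 60149 on WT1 to WT4 and 37308, 50916, 47026 and 48034 on KO1 to KO4. KO1 was the lowest and the gap between KO2 and WT3 was small. The knockout level was 0.746-fold the wild-type level (-0.42 log2 units, SE 0.13, 95% interval -0.71 to -0.13, limma adjusted p = 0.216). Ndrg1, a stress-induced gene of cell differentiation, had 6338, 9898, 19088 and 13847 on WT1 to WT4 and 17359, 9589, 21510 and 16663 on KO1 to KO4. Its groups overlapped widely, and the difference was 0.46 log2 units (SE 0.36, limma adjusted p = 0.592), and 0.18 without WT1.

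**Figure D3:**
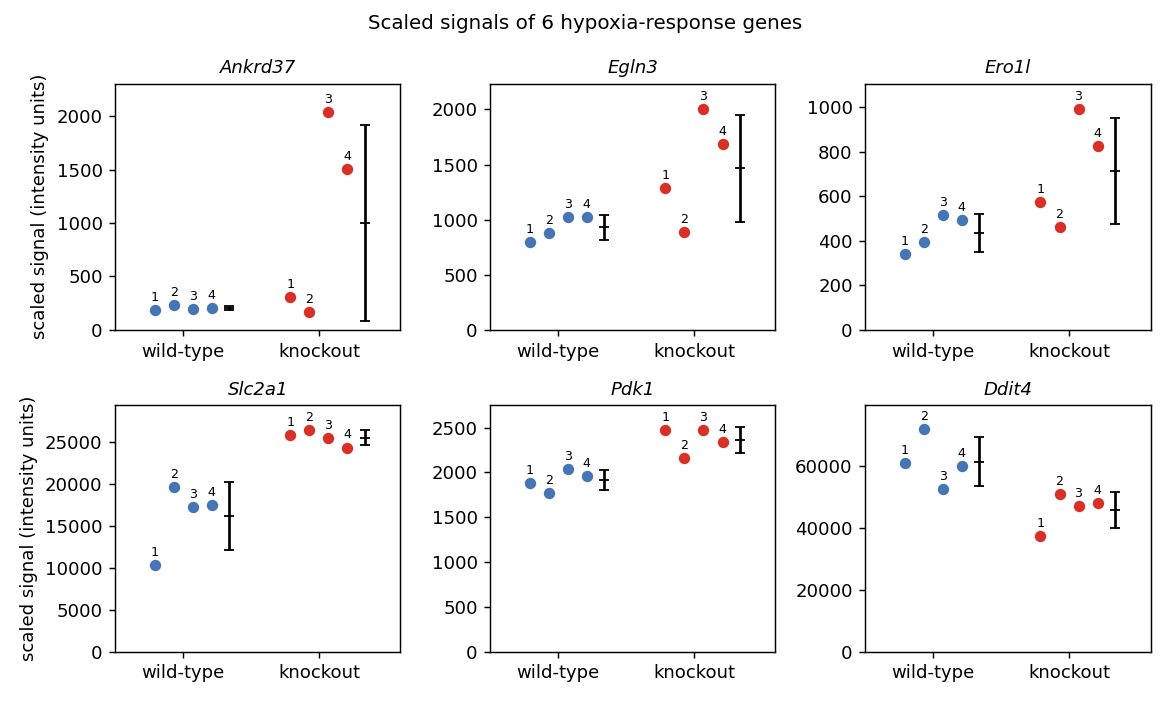
Scaled signal of 6 members on each array, as points numbered by replicate (blue wild-type, red knockout), with a black bar for the arithmetic mean and SD of the 4 arrays and axes that start at 0. Ankrd37, Egln3 and Ero1l are highest on KO3 and KO4 with KO2 near the wild-type arrays, Slc2a1 and Pdk1 are higher on all 4 knockout arrays, and Ddit4 is lower on all 4.

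Outside the 12 members with the largest differences, the other 20 had differences from -0.14 to 0.28 log2 units, with 10 higher means and a smallest unadjusted p of 0.0546 (Egln1, by limma). The knockout SD was the larger one for 18 of the 32 members, against 39.1% of all genes. The median SD was 0.169 in the wild-type and 0.182 in the knockout group for the members, and 0.165 and 0.134 for all genes.

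Differences were then fitted with some of the arrays left out. KO3 and KO4 held the highest member values, so a fit without them had to lower the differences of genes high there. Without KO3 and KO4 the median difference of the members was 0.03 log2 units. Ankrd37 then differed by 0.14, Egln3 by 0.21, Ero1l by 0.27, Kdm3a by 0.17 and Bhlhe40 by -0.11. Bnip3 differed by 0.33 and Car12 by 0.38. Slc2a1 differed by 0.73, Pdk1 by 0.27 and Ddit4 by -0.49, with limma adjusted p values of 0.596, 0.622 and 0.609 over the 6 arrays. Without both replicate 4 arrays the median was 0.14, and Slc2a1 (0.77), Pdk1 (0.32) and Ddit4 (-0.46) were the members with an unadjusted p below 0.05.

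**Figure D4:**
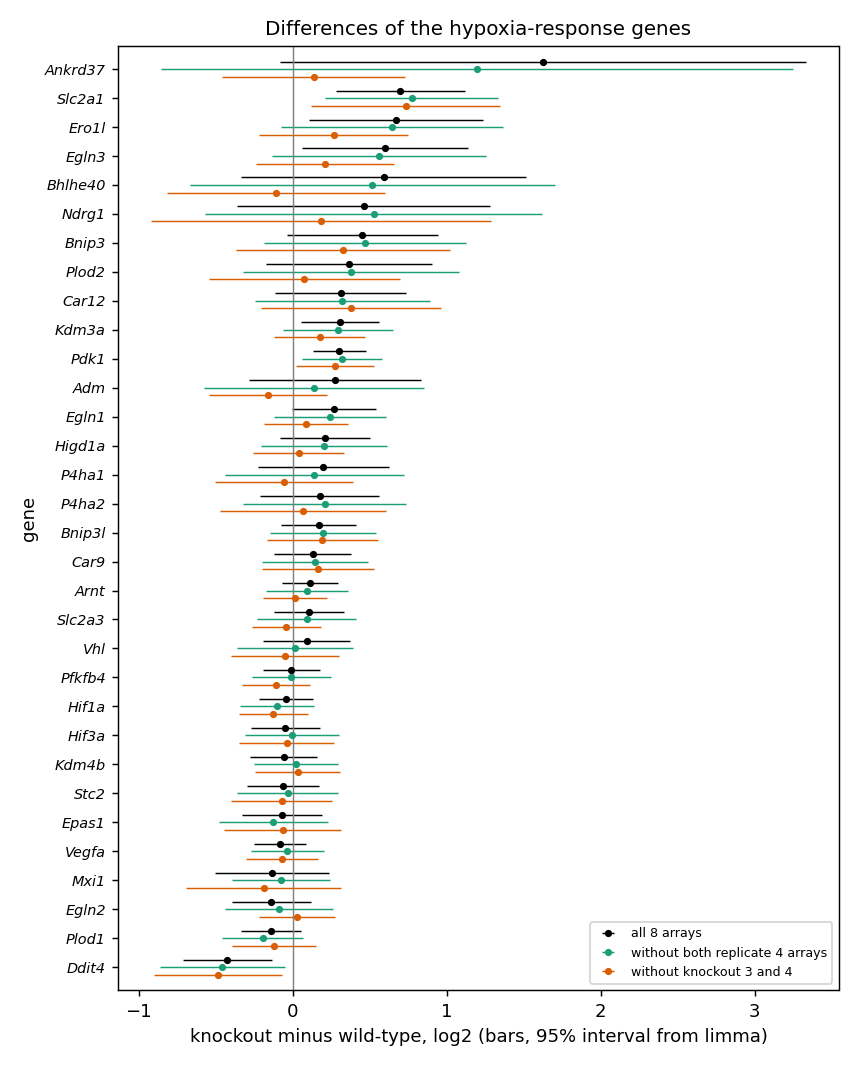
Knockout minus wild-type difference (log2) of each hypoxia-response gene with its 95% limma interval, for all 8 arrays (black), without both replicate 4 arrays (green) and without KO3 and KO4 (orange). The difference of Ankrd37, by far highest on KO3 and KO4, necessarily drops without them, from 1.62 to 0.14. Those of Slc2a1 (0.73), Pdk1 (0.27) and Ddit4 (-0.49) stay close to their values over all 8 arrays.

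Among other genes of the pathway no list had a called gene in either direction. For comparison, 54.8% of all genes had a higher knockout mean. An unadjusted limma p below 0.05 was reached by 6.11% of all genes with a higher and 6.93% with a lower mean. Of 19 tested HIF regulators outside the group, 13 had a higher knockout mean, with a median difference of 0.08 log2 units and 0 with an unadjusted p below 0.05. The genes with the smallest p were Siah1a (0.17) and Siah1b (0.20), which degrade the prolyl hydroxylases, the chaperone Hsp90aa1 (0.44) and the coactivator Ep300 (0.21). Of 22 glycolysis genes known as HIF targets, 21 had a higher knockout mean, with a median of 0.18, and 2 had an unadjusted p below 0.05. These were the lactate exporter Slc16a3 (0.45, limma adjusted p = 0.341) and the enolase Eno2 (0.80, limma adjusted p = 0.383), followed by Pgk1 (0.26) and Tpi1 (0.29).

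Of 42 other HIF targets, 27 had a higher knockout mean, against 54.8% of all genes, with a median difference of 0.10. At an unadjusted p below 0.05 there were 6 with a higher mean (against 6.11% of all genes) and 1 with a lower mean (against 6.93%). Ak4, a mitochondrial adenylate kinase, had signals of 1268 to 1881 in the wild-type group and of 2697, 1942, 4794 and 3824 on KO1 to KO4 (0.98 log2 units, limma adjusted p = 0.195). Hilpda, a lipid droplet protein, had 1307 to 2194 in the wild-type group and 2229, 2177, 6770 and 5317 on KO1 to KO4 (1.07, limma adjusted p = 0.295). Both had their highest values on KO3 and KO4. The transferrin receptor Tfrc was higher on every knockout array (0.43) and Insig2, a brake on sterol synthesis, was lower on every one (-0.55, limma adjusted p = 0.131). Mean deviations of the glycolysis list were 0.16, -0.02, 0.49 and 0.36 log2 units on KO1 to KO4, close to those of the members.

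Immediate-early genes, which respond within minutes to stress and to handling, moved with the same arrays. Of 15 such genes, all tested, 0 were called. Against 6.11% of all genes, 4 of these 15 had an unadjusted p below 0.05 with a higher mean. Their mean deviations were 0.20, -0.03, 1.61 and 1.30 log2 units on KO1 to KO4 and -0.44, -0.04, 0.32 and 0.17 on WT1 to WT4. Their summed signal ran from 20140 to 32640 in the wild-type and from 27963 to 69370 in the knockout group. Atf3, a stress-induced transcription factor, had 158 to 688 in the wild-type group and 527, 406, 8799 and 6529 on KO1 to KO4. The part of handling or of the time to freezing in the members' values was not tested. Ddx3y was also above background in the knockout group on KO3 and KO4 only. In the wild-type group it was above background on WT1, WT2 and WT4, and on WT3 neither Ddx3y nor Xist was. The part of sex in these values was not tested.

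**Figure D5:**
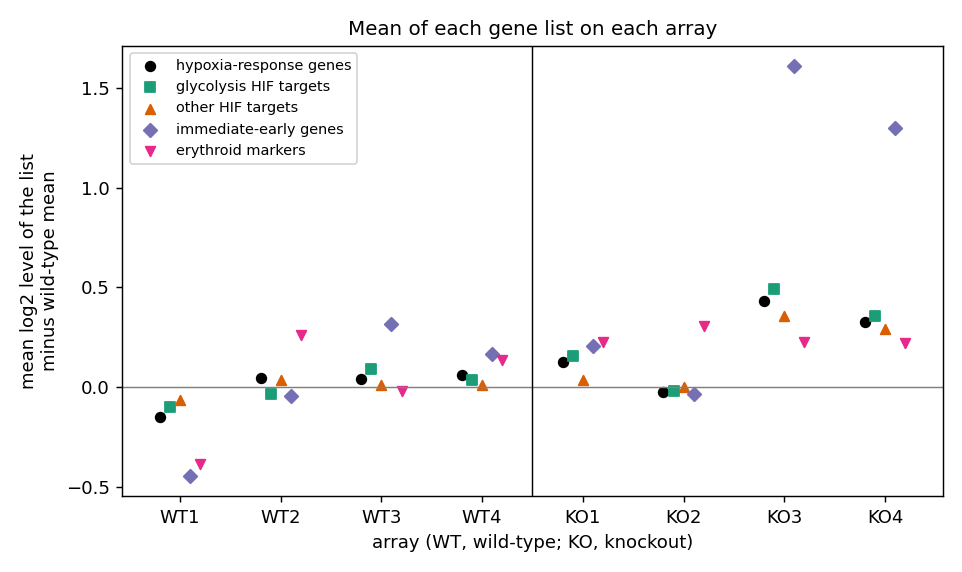
Mean log2 level of each gene list minus its wild-type mean, by array, for the hypoxia-response genes, the glycolysis and other HIF targets, the immediate-early genes and the erythroid markers. The first 4 lists are highest on KO3 and KO4, where the immediate-early genes reach 1.61 and 1.30, and all but the erythroid markers are near 0 on KO2.

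Among markers of other liver cells, with 0 genes called in limma, the stellate and macrophage lists were lowest on KO3 and KO4. These arrays had the highest member values. The endothelial list was about as low on KO1 as on KO3, and the erythroid list was not low on KO3 (0.23) or KO4 (0.22). For 6.93% of all genes the unadjusted p was below 0.05 with a lower knockout mean. The same held for 7 of 12 stellate, 4 of 12 endothelial and 1 of 12 macrophage markers. The 12 stellate and fibroblast markers had mean deviations of -0.35 on KO3 and -0.32 on KO4, and -0.19 and -0.17 on KO1 and KO2, with summed signals of 95891 to 108566 in the wild-type and 72846 to 86729 in the knockout group. The 12 endothelial markers lay at -0.21 on KO1 and KO3, -0.15 on KO4 and -0.04 on KO2, and summed to 54380 to 70831 in the wild-type and 51590 to 55281 in the knockout group. The 12 macrophage markers lay at -0.22 on KO3, -0.14 on KO4, -0.08 on KO1 and 0.02 on KO2. They summed to 141260 to 183899 in the wild-type and 140012 to 160008 in the knockout group. Hepatocyte markers stayed between -0.05 and -0.01 on the knockout arrays. The part of cell composition in the members' values was not tested.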

How the data were processed

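RNA from 8 livers was labelled with Cy3 and hybridised to 1 Agilent array each, per the labels' protocols. The authors deposited spot intensity, and the submitters' processing notes name Agilent Feature Extraction 10.10 and limma. Their deposited value table is in log2 units (27084 probes, array medians 8.84 to 8.86, Pearson r of 0.995 to 0.996 with the log2 processed signal, direction as the scanner values), and its exact normalization is not given in the sources used here.

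The values here are log2 processed signals, each array being set to its own 75th percentile over the averaged non-control probes. Control and outlier-flagged spots were left out, spots of 1 probe were averaged, and a probe was kept if well above background on at least 4 arrays. No spot was saturated. Each gene took its kept probe with the highest mean. Levels of different probes are not compared. Probe positions are on mm9 per the file headers.

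Knockout and wild-type were compared with limma 3.58.1 in R 4.3.3 (lmFit and eBayes, two-sided, Benjamini-Hochberg over all 23526 genes, threshold 0.05), after a test on simulated data. Arrays have no counting depth, and their number limits the precision. Array values are given for members with an unadjusted p below 0.05 or among the 12 largest differences, and for others where they show a pattern. Up to 4 genes of lowest p are named from each other pathway list. Members, lists and tests were chosen with earlier results of these data known. The mixtures were fitted by least squares with weights of at least 0 on linear signals. Alternatives covered normalization, background, filters, probe choice, covariates and left-out arrays.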

Additional observations from a re-analysis of the deposited data

Results flagged for a closer look

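In 66 groups of 4 values checked (each member's levels in each genotype, and the mean of all members), 5 held an array far from the other 3, where chance alone marks about 5% of groups. Levels are log2 units relative to the array's 75th percentile. WT1 was low for Slc2a3 (2.45, against 2.59 to 2.62 on the other wild-type arrays), for Egln2 (5.63, against 5.84 to 5.86) and for the mean of all members (1.63, against 1.82 to 1.84). Car12 was low on WT2 (-4.07, against -3.39 to -3.25). Arnt was high on WT3 (2.12, against 2.05 to 2.06).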

How the results depend on the processing

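No member passed the adjusted threshold in any setting but 1: without WT1, Slc2a1 passed (0.50 log2 units, limma adjusted p = 0.0465), so 0 to 1 members were called when single arrays were dropped. Without WT1, 98 of all 23526 genes were called, against 49 in the main fit. Calling at an unadjusted p below 0.05 gives 6 members, where 3069 of all genes pass. The count of members higher at an unadjusted p below 0.05, 5 as reported, was 2 without both replicate 4 arrays, 2 without KO3 and KO4, 9 with Ddx3y and 12 with Xist as a covariate, and 2 to 9 with 1 array left out. The share of all genes, 6.11% as reported, was 3.26%, 3.56%, 7.21% and 6.08% in the first 4 of these settings, so fewer calls were made overall in the first 2. With 1 array left out that share ran from 3.90% (without KO4) to 7.32% (without KO2). At that p, 2 members were lower in the authors' deposited values, against 8.28% of all genes. The median difference was 0.33 with the Xist covariate and 0.10 to 0.22 with 1 array left out. Bhlhe40 changed sign without KO3 and KO4 (-0.11). Xist had scaled signals of 2.60 to 4.83 in the wild-type group and of 1872, 1613, 5.12 and 518 on KO1 to KO4. The Xist covariate therefore cannot be fully separated from genotype. The cause of these shifts was not tested.

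The number of genes called over the whole array, 49, was 80 with quantile normalization, 135 with normexp background correction, 151 with both, 142 in the deposited table, 20 without a filter on dim probes, 83 when a probe had to be above background on every array, and 156 with a trended, robust eBayes. It was 92 with Ddx3y and 14 with Xist as a covariate, 5 without both replicate 4 arrays, 12 without KO3 and KO4, 13 without WT3 and WT4, and 14 to 98 with 1 array left out. It was 219 at an adjusted p of 0.1 and 3069 at an unadjusted p of 0.05.

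Deviations of same-numbered arrays correlated between -0.11 and 0.07, and 1 of 4 knockout arrays correlated best with its own number. These correlations, from 1 array per genotype and number, cannot exclude a pairing of the arrays. With the replicate number as a block, 19 genes were called, 0 of them members. Car12 and Mxi1 were dim at their chosen probes, so these values lie close to the background.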

Other observations

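Some HIF targets outside the group also had their highest values on KO3 and KO4, and were chosen for mention after their values were seen. Pfkfb3, which makes an activator of glycolysis, had scaled signals of 892 to 1209 in the wild-type group and 1202, 872, 3446 and 2610 on KO1 to KO4. Hk2, the hexokinase of muscle and growing cells, had 375 to 622 in the wild-type group and 454, 438, 1140 and 895 on KO1 to KO4.

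The chaperone Hsp90aa1, which is induced by heat and other stress, was also highest on KO3 and KO4, with 17709 to 22175 in the wild-type group and 19910, 19149, 39232 and 33758 on KO1 to KO4.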
